A study of Mus musculus with 12 samples.

Results

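Exon skipping usually removes 1 cassette exon, but a splice donor can also be joined to an acceptor several exons downstream, so that 2 or more neighbouring exons leave the mRNA together. Events of that kind were taken from the splicing table of murine Sf3b1 K700E/+ and Sf3b1 +/+ erythroblasts as the rows typed ES_MULTI with a single chromosomal position, and there were 818 of them among 19323 events of all types. Another 4976 rows described the skipping of 1 exon. The 818 events lay in 475 named genes, 7 of them had no gene name, and they formed 502 loci that shared no skipped exon. Events of 1 locus therefore share reads and are not independent of each other.

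The cells were G1E-ER4 proerythroblasts, a mouse line without endogenous GATA1 kept under puromycin with a GATA1-estrogen receptor fusion, which estradiol activates to drive maturation towards basophilic erythroblasts (basoE). Sf3b1 K700E/+ cells were edited with CRISPR-Cas9 and are 1 clone, compared with 1 isogenic Sf3b1 +/+ clone that was made with CRISPR-Cas9 as well. All 6 libraries used here, 3 per genotype, were taken after 24 h of estradiol, and samples before estradiol were not analysed here. The study's methods speak in general of independent experiments with its cell lines, but the labels do not say of these libraries whether they were separate cultures. The library spread behind each P value may therefore be technical, and genotype and clone cannot be told apart.

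Gene counts summed to between 38785471 and 50077827 per library, and the 818 events held between 300608 and 401532 reads per library. Sf3b1 itself was at 746 to 769 CPM (library-scaled counts) in K700E/+ and at 729 to 757 CPM in +/+, and the edited codon cannot be read from counts. All 10 erythroid markers of the list, Gata1, Klf1 and globin genes among them, were at a mean of 1 CPM or more. Gata1 counts may come from the fusion, as the line lacks endogenous GATA1. They were 317 to 324 CPM in K700E/+ and 146 to 177 CPM in +/+. Hbb-bt was at 23.0 to 61.4 against 77.0 to 168 CPM. Hba-a1 (1003 to 2044 against 1227 to 2054 CPM) and Alas2 (191 to 362 against 148 to 234 CPM) overlapped between the genotypes. Of 8 granulocyte and macrophage markers 3 reached that level, and the list summed to 0.0401 to 0.112 CPM in K700E/+ and 9.12 to 30.7 CPM in +/+, with Mpo, Elane, Csf1r, S100a8 and S100a9 under 0.1 CPM on average. The part of these differences in the splicing values was not tested.

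SF3B1 is the largest subunit of the SF3b complex of the U2 small nuclear ribonucleoprotein, which binds the branch point upstream of a 3′ splice site and so takes part in choosing the acceptor. The K700E substitution of myelodysplastic syndromes is best known for the use of cryptic 3′ splice sites. Whether an exon is kept depends on its own acceptor and donor and on the splice sites that flank it, and exons that leave together are read in the data by 4 kinds of reads. Reads on both outer junctions join the variable part to the flanking exons, inside reads fall in the skipped exons or on the junctions between them, and skipping reads cross the junction that joins the flanking exons directly. PSI, the share of the inclusion path from 0 to 1, was computed from reads divided by the length of each path, and ΔPSI is PSI in K700E/+ minus PSI in +/+.

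To show what joins to what, the skipping junctions of events described below are given 5′ to 3′ as 15 bases of the upstream flanking exon in lower case and 15 bases of the downstream one in capitals. They were read from GENCODE M21 transcripts whose chain of exon and intron lengths matched the event, for 395 of the 818 events. Coordinates are the deposited positions of the whole event (GRCm39). They are wider than the intron of the skipping junction, which measured 1200 nt in Lztr1.
Lztr1 (chr16:17342046-17343325, plus strand): agctgcccgttctagATTCTGGAGGCGGCT
Gdpd3 (chr7:126366568-126367782, plus strand): tttacttctcaccagAACCCCGAGATGCCC
Clk4 (chr11:51158118-51162666, plus strand): taaagactcggattgTCACTATTTAGAAGC
Adgre5 (chr8:84456117-84460083, minus strand): agaatacatgtcaagATGTGGATGAGTGCA
Alg6 (chr4:99615145-99632766, plus strand): accagtcaaacagtgGCTTGCATTGTTCAT
Ddb2 (chr2:91042920-91064493, minus strand): atcttccttaaagggGCGACCTGGCATTCA
Rexo5 (chr7:119443247-119447994, plus strand): actactgtttcctgaTGCTTTTGGGTCGCA
Rsrc2 (chr5:123883135-123887391, minus strand): aaaaaaataatggcgGCTATTGATACAGAA
Prpf39 (chr12:65090093-65090819, plus strand): aaacaatcagatgagGTTTATCGACGGGGG
Pbrm1 (chr14:30741210-30747494, plus strand): cggcggagcggcgggAAGAAGTTGGATTCC

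For 3 events with coding exons in the matched transcript, picked to show what is lost, the skipped exons are given joined, the first in lower case and the second in capitals. In Lztr1 these were exons 18 and 19 of 21 (150 and 106 nt), in Gdpd3 exons 5 and 6 of 10 (119 and 90 nt) and in Adgre5 exons 5 and 6 of 20 (135 and 147 nt).
Lztr1 skipped exons: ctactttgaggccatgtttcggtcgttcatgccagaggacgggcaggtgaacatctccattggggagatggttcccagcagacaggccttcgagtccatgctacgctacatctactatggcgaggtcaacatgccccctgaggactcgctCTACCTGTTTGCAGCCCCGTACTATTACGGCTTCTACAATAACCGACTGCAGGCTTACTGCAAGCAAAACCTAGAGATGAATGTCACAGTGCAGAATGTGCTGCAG
Gdpd3 skipped exons: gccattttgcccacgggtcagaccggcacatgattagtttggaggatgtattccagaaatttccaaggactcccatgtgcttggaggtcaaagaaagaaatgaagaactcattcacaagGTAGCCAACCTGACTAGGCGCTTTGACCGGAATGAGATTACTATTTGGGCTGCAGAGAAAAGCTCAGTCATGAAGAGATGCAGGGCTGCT
Adgre5 skipped exons: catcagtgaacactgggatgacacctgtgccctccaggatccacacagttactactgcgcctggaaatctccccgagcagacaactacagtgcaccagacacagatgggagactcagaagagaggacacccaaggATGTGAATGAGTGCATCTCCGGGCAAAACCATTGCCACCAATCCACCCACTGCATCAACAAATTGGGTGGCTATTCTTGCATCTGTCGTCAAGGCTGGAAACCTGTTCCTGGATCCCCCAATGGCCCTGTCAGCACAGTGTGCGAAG

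Most events were the smallest possible ones. Of the 818, 677 skipped 2 exons, 110 skipped 3, 24 skipped 4, 6 skipped 5 and 1 skipped 7. The variable part measured 53 to 3180 nt with a median of 258.5 nt, against a median of 109 nt for events skipping 1 exon, and a skipped exon had a median length of 113 nt. The skipping junction spanned a median of 9907.5 nt of genome (456 to 166679 nt). All splice sites were annotated in 553 events, which is 67.6% against 77.9% of the events skipping 1 exon, and 12 events had no known site. Of the 818 events 748 were marked as complex in the deposited data and 70 were not.

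Frame was judged by length alone, whether or not an event lay in coding sequence. The variable part shifted the reading frame in 476 events (58.2%, against 55.8% of the events skipping 1 exon) and kept it in 342. Keeping the frame was often a joint property of the exons. In 142 of the 342 each skipped exon was a multiple of 3 on its own, while in 162 no exon was, and only the sum was. Clk4 (67 and 59 nt) and Ndufs1 (104 and 52 nt, outside coding sequence) are of the latter kind. The table placed 603 events in coding sequence and 208 outside it. Of 1232 distinct skipped exons, 798 also appeared as the exon of an event skipping 1 exon, and so were seen to leave alone as well.

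Of the 818 events, 799 reached 10 reads per library, inclusion and skipping paths together, and were tested. Their inclusion was high, with a PSI, as the median over the 6 libraries, above 0.9 in 295 events, between 0.1 and 0.9 in 490 and under 0.1 in 14. The median PSI over the 799 events was 0.830, 0.838 and 0.840 in the K700E/+ libraries and 0.839, 0.859 and 0.862 in the +/+ libraries. The lowest +/+ library lay between the K700E/+ libraries, so the groups overlapped, although within each of the 3 replicate numbers the K700E/+ library was the lower one. The means were 0.836 ± 0.00533 and 0.853 ± 0.0128 (SD, n = 3 each), a difference of -0.0171 with an exact two-sided permutation P = 0.2, where 0.1 is the smallest P that 3 against 3 libraries allow. Paired by replicate number the differences were -0.0085, -0.0207 and -0.0221, with an exact two-sided sign-flip permutation P = 0.25, the smallest that 3 pairs allow. Events outside coding sequence had lower medians (0.496 in K700E/+ and 0.527 in +/+, 201 events) than coding ones (0.874 and 0.889, 593 events).

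A total of 47 events were called differentially spliced (DSE) at a BH-adjusted P under 0.05 in edgeR and an absolute ΔPSI over 0.10, 20 with higher and 27 with lower inclusion in K700E/+. They lay in 34 genes, 13 with a rise and 21 with a fall. This is 5.88% of the events tested, while 6.32% of all 18038 events tested were called (2.19% higher and 4.13% lower) and 5.06% of the events skipping 1 exon, so the share lay near that of events in general. In all 47 the libraries of the genotypes did not overlap, which was so in 214 of the 799 tested (26.8%, against 25.9% of all events). A further 28 events passed the adjusted P with an absolute ΔPSI of 0.10 or less, and 82 moved by more than 0.10 without passing it. In 493 events the difference was at most 0.05. Of the 47, 38 skipped 2 exons, 30 had every splice site annotated, 32 shifted the frame and 34 were coding, against 658, 543, 463 and 593 of the 799.

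**Figure D1:**
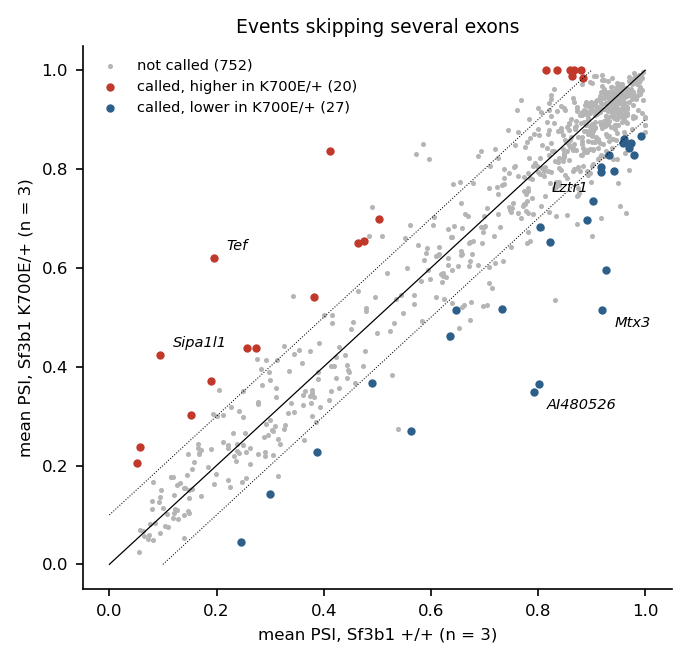
Mean PSI of the 799 tested events in Sf3b1 +/+ (x axis) and Sf3b1 K700E/+ (y axis), 3 libraries each, with the line of equality and dotted lines at a difference of 0.10. The 20 events called higher (red) lie above the dotted band and the 27 called lower (blue) below it, with Tef, Sipa1l1, AI480526 and Mtx3 farthest out.

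The largest rises were in Tef, which encodes a PAR bZIP transcription factor, and in Sipa1l1, which encodes a GTPase-activating protein of Rap. In the Tef event with most reads, which skips exons of 77 and 117 nt (chr15:81699424-81705439), PSI was 0.619, 0.650 and 0.590 in K700E/+ and 0.221, 0.172 and 0.194 in +/+. The genotypes stood far apart, with means of 0.620 ± 0.0300 and 0.196 ± 0.0246 (SD, n = 3 each), ΔPSI 0.42 and BH-adjusted P = 8.34e-09. A second called Tef event (96 and 77 nt) also had a ΔPSI of 0.42. From junction reads alone the ΔPSI was 0.24 for the first event (BH-adjusted P = 4.54e-05) and 0.60 for the second (BH-adjusted P = 6.54e-08), so the sizes depended on the inside reads. The reads of the second event show what differed. One outer junction had 56, 37 and 31 reads in K700E/+ and 0, 0 and 0 in +/+, and the other 112, 81 and 79 against 14, 5 and 10. The skipping junction had 11, 10 and 13 reads in K700E/+ and 11, 12 and 19 in +/+, so the inclusion side differed far more than the skipping side. Tef itself rose by 0.32 on the log2 scale (SE 0.102, BH-adjusted P = 0.0295).

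In Sipa1l1 (238 and 69 nt, chr12:82281262-82358161) PSI was 0.426, 0.358 and 0.488 in K700E/+ and 0.0849, 0.101 and 0.0999 in +/+. Means were 0.424 ± 0.0650 and 0.0954 ± 0.00915 (SD, n = 3 each), with ΔPSI 0.33 and BH-adjusted P = 3.89e-10. Again 1 outer junction was nearly private to K700E/+, with 40, 53 and 44 reads against 0, 2 and 1, while the other was used in both (58, 34 and 30 against 41, 76 and 64). Inside reads were 128, 137 and 152 against 7, 5 and 8, and skipping reads 63, 83 and 49 against 107, 152 and 136. In both Tef and Sipa1l1 at least 1 splice site of the event was not annotated. In Tef 3 of 6 sites were annotated in the event of 77 and 117 nt, and 1 of 7 in that of 96 and 77 nt. Of 4 tested single-exon events on the Sipa1l1 exons 3 were called, 2 higher and 1 lower in K700E/+, so that the exons did not move as 1 block. The gene as a whole fell by 0.67 on the log2 scale (SE 0.149, BH-adjusted P = 0.00574).

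**Figure D2:**
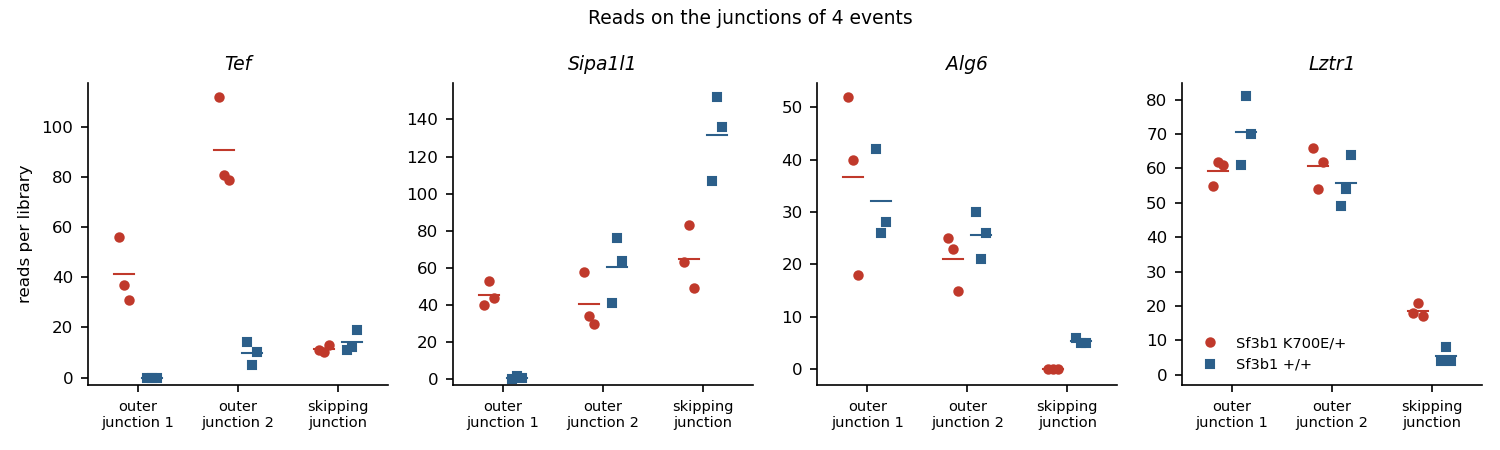
Reads per library on both outer junctions and on the skipping junction of 4 events (the Tef event of 96 and 77 nt, Sipa1l1, Alg6 and Lztr1), as points for the 3 libraries of each genotype with a line at their mean. An outer junction of Tef and Sipa1l1 is at or near 0 reads in +/+, the Alg6 skipping junction is at 0 in K700E/+, and the Lztr1 skipping junction has 17 to 21 reads in K700E/+ against 4 to 8 in +/+.

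Among the other rises was Alg6, which encodes a glucosyltransferase of N-glycan precursor assembly. Its 5 called events had ΔPSI of 0.12 to 0.19. The one with most reads, described here, has the smallest of these, and skips 5 exons (90, 89, 83, 65 and 186 nt, exons 4 to 8 of 15 in the matched transcript). Skipping reads were 0, 0 and 0 in K700E/+ and 6, 5 and 5 in +/+, and PSI was 1 in every K700E/+ library and 0.876, 0.875 and 0.890 in +/+ (ΔPSI 0.12, BH-adjusted P = 0.00208). The reads pooled over K700E/+ would allow a PSI down to 0.973 at the limit of 3 counts, and this covers counting error only. The 4 other called Alg6 events share this skipping junction and so are not further evidence. Joining exon 3 to exon 9 keeps the annotated stop codon in frame. Alg6 fell by 0.43 on the log2 scale (BH-adjusted P = 0.0032). Efcab7, further along the same chromosome (chr4:99735988-99757774) and singled out after its values were seen, had a called rise too (142 and 110 nt), with 0, 0 and 1 skipping reads against 4, 4 and 4. Its call was lost without K700E/+ replicate 1 or 2 or +/+ replicate 2 or 3, with ΔPSI between 0.12 and 0.14 over all 6 fits, and DESeq2 did not call it.

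Clk4 and Rsrc2 also had a called rise. Clk4 encodes a kinase of SR splicing factors, and the event skips its exons of 67 and 59 nt. PSI was 0.635, 0.823 and 0.642 in K700E/+ and 0.534, 0.537 and 0.437 in +/+, with K700E/+ replicate 2 well above the rest. Skipping reads were 45, 20 and 36 against 40, 52 and 55, and ΔPSI was 0.20 with BH-adjusted P = 0.00941. The call was lost without K700E/+ replicate 2 (ΔPSI 0.14, BH-adjusted P = 0.136) or without +/+ replicate 3 (ΔPSI 0.16, BH-adjusted P = 0.0761). Rsrc2, which encodes an arginine and serine rich protein, showed PSI of 0.439, 0.465 and 0.412 in K700E/+ and 0.285, 0.267 and 0.220 in +/+ (exons of 93 and 99 nt, ΔPSI 0.18, BH-adjusted P = 7.95e-05). One outer junction of Rsrc2 had 147, 160 and 95 reads against 86, 89 and 84, while skipping reads were 158, 143 and 118 against 148, 173 and 183. This call held when any single library was left out.

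Pbrm1, a bromodomain subunit of the PBAF chromatin-remodelling complex, had PSI of 0.644, 0.622 and 0.697 in K700E/+ and 0.438, 0.517 and 0.469 in +/+ for its exons of 140 and 113 nt (ΔPSI 0.18, BH-adjusted P = 0.0219). The groups did not overlap, but the call was lost without K700E/+ replicate 1 or 3 or +/+ replicate 1 or 3, where ΔPSI stayed between 0.16 and 0.18, and from junction reads alone (ΔPSI 0.15). A second called Pbrm1 event has the same outer sites. Ndufs1, a core subunit of mitochondrial complex I, had PSI of 0.431, 0.469 and 0.411 against 0.269, 0.282 and 0.269 (exons of 104 and 52 nt outside coding sequence, ΔPSI 0.16, BH-adjusted P = 0.0017). Its inclusion reads came mostly from 1 outer junction, with 143, 117 and 115 reads in K700E/+ and 67, 60 and 61 in +/+, and the other had 1 to 18 reads per library.

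Synj1, which encodes the phosphoinositide phosphatase synaptojanin, skips exons of 39 and 48 nt. Its PSI was 0.408, 0.401 and 0.305 in K700E/+ and 0.238, 0.182 and 0.151 in +/+ (ΔPSI 0.18, BH-adjusted P = 0.0176), and the call was lost without K700E/+ replicate 1 or 2 or +/+ replicate 2 or 3 (ΔPSI 0.16 to 0.18). In the long non-coding RNA 1600020E01Rik PSI was 0.205, 0.199 and 0.309 against 0.0501, 0.0574 and 0.0635 (ΔPSI 0.18, BH-adjusted P = 2.86e-05). There 1 outer junction had 17, 17 and 22 reads in K700E/+ and 1, 2 and 1 in +/+. An event assigned both to the ubiquitin ligase gene Ube3a and to 9330162G02Rik on the opposite strand had PSI of 0.559, 0.522 and 0.544 against 0.415, 0.361 and 0.369 (ΔPSI 0.16, BH-adjusted P = 0.0171). Which of the overlapping genes the reads belong to is uncertain, and the call was lost without K700E/+ replicate 1 or +/+ replicate 2 or 3 (ΔPSI 0.15 in each).

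Of these 10 loci, DESeq2 and limma on logit PSI both called Tef, Sipa1l1, Alg6 and 1600020E01Rik. DESeq2 alone also called Rsrc2 and Ndufs1, and neither called Clk4, Pbrm1, Synj1 or the Ube3a event.

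**Figure D3:**
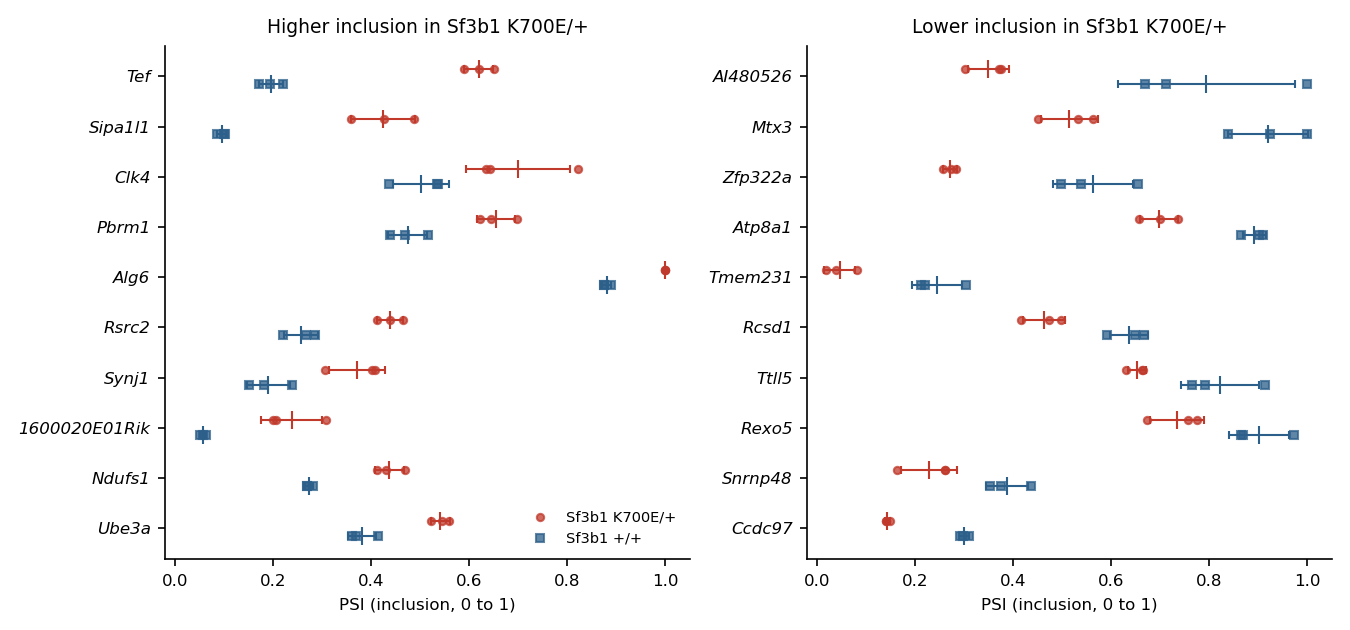
PSI per library at the 10 loci with the largest rises (left) and the 10 with the largest falls (right) among called events, with red circles for Sf3b1 K700E/+ and blue squares for Sf3b1 +/+. Loci were ranked by their largest called ΔPSI and are shown by their called event with most reads, which for Tef, Pbrm1, Alg6 and Atp8a1 is not the event with the largest ΔPSI. Vertical ticks are means and bars are SD of 3 libraries. Only called events with separated libraries were ranked, so that the genotypes do not overlap follows from the choice of events. The spread between libraries is widest for AI480526 in +/+ (SD 0.180) and Clk4 in K700E/+ (SD 0.106).

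The largest falls were in AI480526, a long non-coding RNA, and Mtx3, which encodes a metaxin of the mitochondrial outer membrane. For AI480526 (104 and 72 nt) PSI was 0.371, 0.301 and 0.375 in K700E/+ and 1, 0.712 and 0.669 in +/+. Skipping reads were 24, 22 and 21 against 0, 6 and 10, and +/+ replicate 1 with no skipping read stood apart from the other libraries. Means were 0.349 ± 0.0420 and 0.793 ± 0.180 (SD, n = 3 each), with ΔPSI -0.44 and BH-adjusted P = 0.00196. For Mtx3 (194 and 89 nt) PSI was 0.562, 0.450 and 0.531 in K700E/+ and 0.837, 1 and 0.924 in +/+, with ΔPSI -0.41 and BH-adjusted P = 0.00268. Skipping reads were 11, 14 and 7 against 3, 0 and 1, and 1 outer junction had only 1 to 5 reads in any library. Each gene had a second called event that shared a skipped exon with the one named. The calls of both events named here held when any library was left out.

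Atp8a1, a P4-ATPase that flips phospholipids across membranes, had PSI of 0.736, 0.657 and 0.698 in K700E/+ and 0.90, 0.865 and 0.910 in +/+ for its exons of 74 and 74 nt (ΔPSI -0.19, BH-adjusted P = 0.00134). Skipping reads were 22, 28 and 26 against 6, 10 and 5. Tmem231, a protein of the ciliary transition zone, was mostly skipped, with PSI of 0.0186, 0.0811 and 0.0382 against 0.304, 0.211 and 0.219 (ΔPSI -0.20, BH-adjusted P = 0.000877). Skipping reads of Tmem231 were alike (21, 27 and 20 against 15, 20 and 17), and inside reads were 0, 8 and 2 against 21, 19 and 18. From junction reads alone its BH-adjusted P was 0.11. Ccdc97 had the tightest groups among the large falls, with PSI of 0.14, 0.141 and 0.148 in K700E/+ and 0.290, 0.298 and 0.310 in +/+ (exons of 146 and 135 nt, ΔPSI -0.16, BH-adjusted P = 3.64e-05). Its skipping reads were 177, 178 and 165 against 79, 93 and 83. The calls of these 3 genes held without any single library.

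The other 5 of the 10 largest falls were less stable. Zfp322a, a zinc finger gene, had PSI of 0.284, 0.273 and 0.256 against 0.497, 0.654 and 0.538 (ΔPSI -0.29, BH-adjusted P = 0.0102), and without +/+ replicate 2 the BH-adjusted P was 0.0532 at ΔPSI -0.25. Rcsd1, a partner of actin capping protein, had PSI of 0.498, 0.473 and 0.415 against 0.592, 0.648 and 0.666. Its ΔPSI of -0.17 (BH-adjusted P = 0.0148) came from inside reads (155, 172 and 126 against 231, 304 and 309), was -0.083 from junction reads alone with BH-adjusted P = 0.351, and the call was lost without K700E/+ replicate 3 or +/+ replicate 2 or 3 (ΔPSI -0.15, -0.17 and -0.16).

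Ttll5, a tubulin polyglutamylase, had PSI of 0.664, 0.630 and 0.662 against 0.790, 0.913 and 0.764 (ΔPSI -0.17, BH-adjusted P = 0.029), and the call was lost without any one of the K700E/+ replicates (ΔPSI -0.18, -0.16 and -0.18) or +/+ replicate 2 (ΔPSI -0.12). Rexo5, an RNA exonuclease, had PSI of 0.757, 0.672 and 0.775 against 0.864, 0.972 and 0.869 (ΔPSI -0.17, BH-adjusted P = 0.0303), lost without K700E/+ replicate 2 (ΔPSI -0.14) or +/+ replicate 2 (ΔPSI -0.13). Snrnp48, a protein of the U11/U12 particle of the minor spliceosome, had PSI of 0.260, 0.261 and 0.163 against 0.353, 0.436 and 0.376 (ΔPSI -0.16, BH-adjusted P = 0.00742), lost without K700E/+ replicate 3 (ΔPSI -0.13) or +/+ replicate 2 (ΔPSI -0.14). Its skipping reads were 124, 100 and 103 against 54, 45 and 52, and its exons of 63 and 117 nt lie outside coding sequence.

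Of the 10 loci with the largest falls, DESeq2 and limma both called Mtx3, Atp8a1, Tmem231 and Ccdc97, DESeq2 alone AI480526, limma alone Zfp322a, and neither Rcsd1, Ttll5, Rexo5 or Snrnp48.

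Beyond the 10 largest, Lztr1 and Gdpd3 were singled out after their values were seen because their exons could be followed in coding sequence. Lztr1, a substrate adaptor of the CUL3 ubiquitin ligase acting on RAS proteins, had PSI of 0.804, 0.773 and 0.811 in K700E/+ and 0.952, 0.919 and 0.956 in +/+. Skipping reads rose from 4, 8 and 4 in +/+ to 18, 21 and 17 in K700E/+, while the outer junctions stayed between 49 and 81 reads. Means were 0.796 ± 0.0201 and 0.942 ± 0.0205 (SD, n = 3 each), with ΔPSI -0.15 and BH-adjusted P = 0.000556, and the call held without any single library and with DESeq2 and limma. The 256 nt removed are not a multiple of 3. Read on from the annotated start codon, the skipped form of the matched transcript reached a stop codon 37 nt after the skipping junction. This stop lay 41 nt before the last exon junction. Lztr1 fell by 0.30 on the log2 scale (SE 0.0702, BH-adjusted P = 0.00817). A link between the stop and the gene level was not tested.

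In Gdpd3, a member of the glycerophosphodiester phosphodiesterase family, PSI was 0.791, 0.844 and 0.778 in K700E/+ and 0.898, 0.934 and 0.919 in +/+ (ΔPSI -0.11, BH-adjusted P = 0.000183). Skipping reads were 57, 45 and 60 against 19, 18 and 27, and without K700E/+ replicate 3 ΔPSI was -0.099, just under the threshold. DESeq2 called it, and limma did not (BH-adjusted P = 0.0597). The skipped form reached a stop codon 92 nt after the skipping junction and 151 nt before the last exon junction. An intron of the skipping length was not annotated in M21. The gene level of Gdpd3 did not pass in edgeR (log2 fold change -0.23, BH-adjusted P = 0.25). For Adgre5, the adhesion receptor CD97, whose extracellular EGF-like domains are known to be alternatively spliced, PSI was 0.509, 0.532 and 0.503 against 0.640, 0.657 and 0.644 (ΔPSI -0.13, BH-adjusted P = 0.0438). The groups were tight and apart, but the call was lost when any 1 of the 6 libraries was left out (ΔPSI -0.14 to -0.13), with DESeq2 (BH-adjusted P = 0.379), with limma (BH-adjusted P = 0.125) and from junction reads alone (ΔPSI -0.11, BH-adjusted P = 0.161). The skipped form of Adgre5 keeps the annotated stop codon. Over the 225 events inside the coding sequence of a matched transcript, skipping kept the annotated stop codon in 133 and lost it in 92.

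The remaining called loci, named here with their values known, were Vopp1 and Cep57l1 among the rises and Arap1, Fam13b, Marchf7, Wdr83, Prpf39 and Scamp4 among the falls. Vopp1 had PSI of 0.261, 0.317 and 0.328 in K700E/+ and 0.149, 0.146 and 0.160 in +/+ (ΔPSI 0.15, BH-adjusted P = 0.000552), and its call held without any single library. Prpf39, a factor of the U1 small nuclear ribonucleoprotein, had PSI of 0.315, 0.385 and 0.404 against 0.469, 0.486 and 0.514 (ΔPSI -0.12, BH-adjusted P = 0.0277), lost without K700E/+ replicate 1 or 2 or +/+ replicate 2 or 3 (ΔPSI -0.095, -0.13, -0.12 and -0.11). Marchf7, an E3 ubiquitin ligase, rested on K700E/+ replicate 3, with PSI of 0.830, 0.865 and 0.686 against 0.970, 0.898 and 0.881 and a ΔPSI that went from -0.12 to -0.069 without that library, and the call was also lost without +/+ replicate 1 (-0.096) or 2 (-0.13). The other 5 had ΔPSI of -0.15 to 0.10 and BH-adjusted P between 0.000129 and 0.0357, and each lost its call without at least 1 library. This was K700E/+ replicate 1 for Fam13b, any library but +/+ replicate 3 for Cep57l1, K700E/+ replicate 2 or 3 or +/+ replicate 2 or 3 for Arap1, K700E/+ replicate 1 or 2 or +/+ replicate 2 or 3 for Wdr83, and any library but K700E/+ replicate 2 for Scamp4. Over the fits that left out 1 library ΔPSI ranged from 0.076 to 0.12 for Cep57l1, -0.21 to -0.12 for Arap1, -0.17 to -0.093 for Fam13b, -0.15 to -0.10 for Wdr83 and -0.12 to -0.087 for Scamp4. From junction reads alone ΔPSI was -0.049 for Scamp4, which was not called (BH-adjusted P = 0.0944), and -0.21 for Fam13b, which was. Of these 8 loci DESeq2 and limma both called Vopp1, DESeq2 alone Fam13b, limma alone Scamp4, and neither Cep57l1, Arap1, Marchf7, Wdr83 or Prpf39.

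Of the gene lists, the one of 85 splicing regulators held 14 tested events in 9 genes. Clk4 was called higher (1 of 14, against 2.19% of all events tested) and none was called lower in edgeR. At an unadjusted P under 0.05 in edgeR 7 were higher and 3 lower, and DESeq2 and limma called 0 in either direction. The median ΔPSI was 0.047 against -0.013 over all 799 tested events. These counts and the median take overlapping events as separate ones, such as the Prpf38b events of 71 and 54 nt and of 71 and 50 nt, which have the same skipping reads. Son (1831 and 38 nt), which encodes an RNA-binding scaffold of nuclear speckles, had PSI of 0.611 ± 0.0272 and 0.719 ± 0.0741 (SD, n = 3 each) at BH-adjusted P = 0.0978. Srsf4 (207, 137 and 174 nt), an SR protein, had 0.301 ± 0.0289 and 0.378 ± 0.0141 (SD, n = 3 each) at BH-adjusted P = 0.0836. Prpf38b (71 and 50 nt) went the other way, with 0.176 ± 0.036 and 0.116 ± 0.023 (SD, n = 3 each) at BH-adjusted P = 0.0739. Sf3b1 has an event of its own (56 and 54 nt), with PSI of 0.0813 ± 0.0233 and 0.0760 ± 0.0109 (SD, n = 3 each) at BH-adjusted P = 0.864. None of these events, picked with their values known, was called.

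The list of 167 DNA repair and replication genes held 12 tested events in 6 genes, of which 4 were called lower and none higher in edgeR. At an unadjusted P under 0.05 in edgeR 7 were lower and 1 higher. Lower calls made up 4.13% of all events tested and 3.38% of the 799. DESeq2 called 0 of the 12 and limma 1 lower. The median ΔPSI was -0.09 against -0.013 over the 799, but it counts overlapping Ddb2 events with the same skipping reads as separate ones. The 4 called events are 3 overlapping Ddb2 events and 1 of Uimc1, so they stand for 2 genes. Ddb2, the damage-recognition subunit of the UV-DDB complex, had PSI of 0.846, 0.821 and 0.891 in K700E/+ and 0.974, 0.947 and 1 in +/+ for its 4 exons of 143, 178, 100 and 146 nt. Skipping reads were 5, 6 and 3 against 1, 2 and 0, so few reads stood behind ΔPSI -0.12 and BH-adjusted P = 0.029. The call was lost without K700E/+ replicate 1 or 2 or +/+ replicate 1 or 3 (ΔPSI -0.12, -0.11, -0.12 and -0.11) and with DESeq2 and limma, while from junction reads alone ΔPSI was -0.19 and still called. Ddb2 fell by 0.44 on the log2 scale (BH-adjusted P = 0.0065). Uimc1 (RAP80), which brings the BRCA1-A complex to ubiquitin at DNA breaks, had PSI of 0.804, 0.835 and 0.848 against 0.951, 0.932 and 0.916, with skipping reads of 26, 17 and 13 against 4, 6 and 8 (ΔPSI -0.10, BH-adjusted P = 0.00849). Without K700E/+ replicate 1 or +/+ replicate 1 its ΔPSI was -0.092 and -0.095, under the threshold in size, and DESeq2 did not call it (BH-adjusted P = 0.0963). The lists of 64 erythroid and 18 nonsense-mediated decay genes held no event.

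The 6 events with most reads showed what the precision was at depth. Gas5, a long non-coding RNA that hosts small nucleolar RNAs, had PSI of 0.973, 0.972 and 0.973 in K700E/+ and 0.953, 0.956 and 0.962 in +/+. The libraries did not overlap and the BH-adjusted P was 0.00683, but ΔPSI was only 0.016. Brca1, a DNA repair scaffold, skipped exons of 1086 and 2094 nt, with PSI of 0.953, 0.933 and 0.911 against 0.972, 0.957 and 0.941 (BH-adjusted P = 0.38). Prkar2b, a regulatory subunit of protein kinase A, had PSI of 0.827, 0.828 and 0.844 against 0.823, 0.859 and 0.863 (BH-adjusted P = 0.594). Phf3, Mns1 and the event shared by Cpne1 and Gm28036 had ΔPSI of -0.0040, 0.0061 and -0.017 and BH-adjusted P of 0.887, 0.722 and 0.862, and for Phf3 and Cpne1 the sign changed with the libraries used. Over all tested events the median SD between libraries was 0.0357 in K700E/+ and 0.0361 in +/+, about as large as the median absolute difference between genotypes of 0.0367.

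C2cd5, Nbdy and Parp6 were described whatever their call, because such events were seen in them in these clones before estradiol, and Pkm had no event of this kind in the table. C2cd5, a C2-domain protein of GLUT4 trafficking, had PSI of 0.471, 0.591 and 0.454 in K700E/+ and 0.311, 0.422 and 0.471 in +/+, which overlapped (BH-adjusted P = 0.25). Nbdy, a microprotein of mRNA decapping bodies, had 0.891, 0.966 and 0.868 against 0.820, 0.90 and 0.914 (BH-adjusted P = 0.698). Parp6, a mono-ADP-ribosyltransferase, had 0.645, 0.585 and 0.766 against 0.436, 0.601 and 0.418 (BH-adjusted P = 0.164) for exons of 73 and 103 nt, with 490 reads over 6 libraries.

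Single-exon events on the same exons share part of the reads, so they are not independent evidence of how many exons moved. Of the 47 called events, 34 had such an event tested. In 24 of these at least 1 was called, in 22 every called one had the direction of the event skipping several exons, and in the other 2, in Sipa1l1 and Mtx3, 1 went the opposite way. Over all tested events skipping 1 exon 5.06% were called, but the shared reads tie these calls to those of the 47. In Ndufs1 single-exon events had ΔPSI of 0.12 and 0.19, and in Mtx3 -0.45 for the event of 194 and 89 nt.

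Finally, host genes were compared between the genotypes. Of 476 host genes tested, 33 changed at a BH-adjusted P under 0.05 and an absolute log2 fold change over 1, 18 higher and 15 lower, which is 6.93% against 10.3% of all 12547 genes tested (4.07% higher and 6.24% lower). Of the 34 tested host genes of called events 0 were among the 33, in edgeR and in DESeq2, although 19 had an unadjusted P under 0.05. At the adjusted P alone, 4 of the 34 rose and 11 fell, against 21.3% and 23.1% of all genes. Among hosts of events with higher inclusion Sipa1l1, Alg6 and Synj1 (log2 fold change -0.39) fell, and Tef, 1600020E01Rik (0.28) and Ube3a (0.63) rose. Among hosts of events with lower inclusion Arap1 fell most (log2 fold change -0.76, BH-adjusted P = 9.4e-05), followed by Rcsd1 (-0.74), and only Ccdc97 rose (0.41). The 33 hosts that passed both thresholds carried 46 events, of which 39 were tested. That 0 of these were called only restates that no host of a called event passed both thresholds. The share called was 5.88% over the 799 events and 6.32% over all events tested. At such shares few calls among 39 events would be seen, so the 0 is not read as a property of these hosts. Among these hosts were Smarca2, an ATPase of the BAF complex, at 17.6 to 19.5 CPM in K700E/+ and 0 CPM in every +/+ library, and Dglucy at 0.38 to 0.611 CPM against 18.6 to 19.5 CPM.

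**Figure D4:**
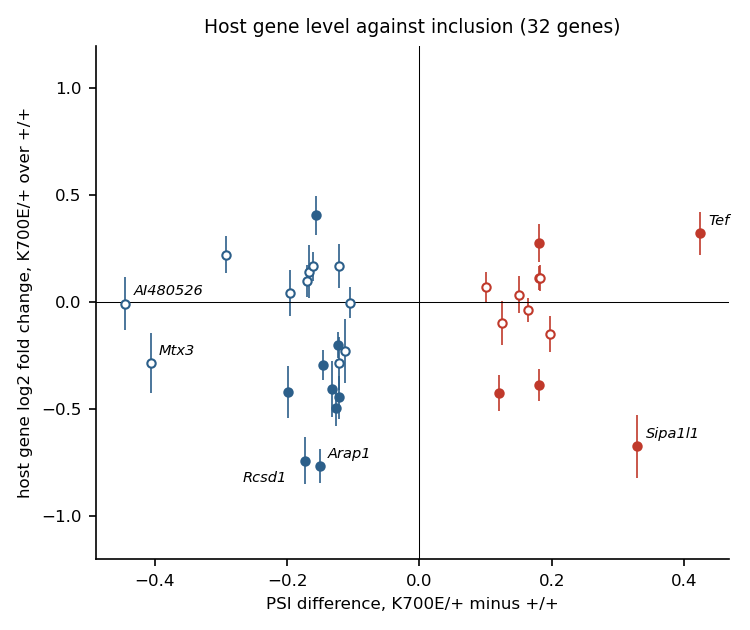
Log2 fold change of the host gene (y axis, bars are SE) against ΔPSI (x axis) for 32 genes with a called event and a single gene identifier, red for higher and blue for lower inclusion in Sf3b1 K700E/+. Filled points passed a BH-adjusted P under 0.05 for the gene, every point lies within 1 log2 unit of 0, and genes of either sign are found on both sides.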

How the data were processed

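Poly(A) RNA of G1E-ER4 cells after 24 h of estradiol was sequenced in 3 Sf3b1 K700E/+ and 3 Sf3b1 +/+ libraries (paired-end, strand-specific). The authors aligned reads with STAR 2.7.9 to GRCm39 per the labels and deposited raw gene counts. They deposited splicing events of KisSplice with packed read numbers per path, 2 read files per library, which were summed here, and PSI values. Authors' fold changes and P values (DESeq2 1.30.1) were not used.

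PSI was the length-normalized share of the inclusion path. It correlated with the deposited PSI at r = 0.979 over 4806 values, with a median difference of 0.0385. Events with 10 reads or more in every library were tested in edgeR 4.0.16 (R 4.3.3, quasi-likelihood) with terms for library, path and path by genotype over all 18038 events, and genes after filterByExpr and TMM. Benjamini-Hochberg adjustment covered all features tested. DESeq2 1.42.0 and limma 3.58.1 were alternatives, with a pseudocount of 0.5 reads, and steps were tested on simulated data. Replicates of a genotype differed by 8.07 to 35.8 chi-square units per degree of freedom over genes, so none was a duplicate. Libraries with the same replicate number deviated together in log CPM (r = 0.63, 0.48 and 0.48 over 8771 genes) and weakly in PSI (0.14, 0.06 and 0.08 over 13146 events). Named were the 10 largest rises and falls among called events with separated libraries (1 per locus), called events in the gene lists, the 6 events with most reads, and 6 genes of the study's earlier time point. Members and lists were chosen with earlier results of these data known. No GRCm39 sequence was used here, and transcripts were matched by exon and intron lengths.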

Additional observations from a re-analysis of the deposited data

How the results depend on the processing

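The 20 higher and 27 lower events kept their counts at minimums of 5 and 20 reads and with no minimum, and moved by less than 1.5 times with junction reads only (21 and 26), deposited PSI (22 and 31) and, as an alternative chosen after seeing the data, with both outer junctions supported by 10 reads and 0.1 of the stronger one's reads (15 and 23). The tool mattered more. DESeq2 called 13 and 9, limma on logit PSI 12 and 12, and a ΔPSI over 0.20 left 3 and 6. Of the 47 calls 22 were also made by DESeq2 and 23 by limma. Without complex, paralogous and SNP events 62 events were tested, with 1 higher and 0 lower in edgeR, where 8 were lower at an unadjusted P under 0.05. Leaving out 1 library gave 14 to 18 higher and 14 to 23 lower events, the fewest lower ones without +/+ replicate 2 (14) and K700E/+ replicate 1 (16), and 20 of the 47 calls in 13 genes held in all 6 fits. With the replicate number as a block there were 26 and 34, and all 47 calls held. The cause of these shifts was not tested. The difference in median PSI ranged from -0.0267 (deposited PSI) to -0.0126 (without +/+ replicate 3) and was -0.0171 within replicate pairs, with permutation P between 0.1 and 0.3. Host gene calls ranged from 28 to 33 over all alternatives. No called event named in the text changed direction. Of the named events without a call, Phf3 (ΔPSI -0.0040) ranged from -0.015 to 0.0020 over the fits that left out 1 library, above 0 without K700E/+ replicate 1 (0.0020) or 3 (0.0012) or +/+ replicate 2 (0.00072). The event of Cpne1 and Gm28036 (-0.017) was 0.011 with junction reads only and ranged from -0.049 to 0.019, above 0 without K700E/+ replicate 3 (0.015) or +/+ replicate 2 (0.019). In 9 of the 47 calls the weaker outer junction had under 0.1 of the reads of the stronger, and skipping reads under 10 per library limit events such as Alg6, Ddb2 and Efcab7.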
